A study of Homo sapiens with 5 samples.

Results

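The G1/S and DNA replication genes described here are 34 genes chosen by name, from the D-type and E-type cyclins to the machinery that licenses origins, unwinds DNA and copies it. All 34 were found among the 57905 genes with counts, and all 34 passed the filter on low counts, which kept 15500 genes. Where a symbol had more than 1 identifier, the one with most reads was taken. The genes were measured by RNA sequencing of total RNA from SVG-10B1, a human astroglial cell line grown in DMEM with fetal calf serum. The 2 wild-type libraries carry unedited IDH1 and are labelled replicates 1 and 2 of clone 1. The edited cells have the same background and carry IDH1 R132H/WT, with the substitution on 1 allele. They gave 1 library of clone 2 and 2 libraries, replicates 1 and 2, of clone 6.

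Cells pass from G1 into S phase when cyclin-dependent kinases inactivate RB and so free the E2F factors, which switch on the genes of DNA synthesis. Origins are licensed beforehand, when ORC, CDC6 and CDT1 load the MCM helicase onto DNA, and geminin then blocks CDT1 so that each origin fires once. SVG cells were made by transformation of fetal glial cells with SV40 sequences, and the large T antigen of that virus binds RB. The unedited cells are 1 clone and the edited cells 2, so the IDH1 edit and differences between clones cannot be told apart.

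Reads in genes ranged from 13572114 to 21881726 per library, and the share in ribosomal RNA genes from 0.42 to 9.79%. The 34 genes held 68493 to 111804 reads per library, and the least covered, CCNE1, had at least 168 reads in each. The clone 2 library and clone 6 replicate 1 were closer to each other (median absolute difference 0.097 log2 CPM over all genes tested) than the wild-type replicates were (0.142) or the clone 6 replicates (0.28). Among the 34 genes the same medians were 0.0434, 0.0638 and 0.198. Clone 6 replicate 2 therefore stood apart from its own replicate, and results are given with and without it. Whether the clone 2 library and clone 6 replicate 1 were prepared together, or 1 of them carries the wrong clone label, cannot be told from gene counts, so values for a single clone are those of the libraries as labelled. Of the astroglial markers, GFAP was at 0.31 to 0.61 CPM, AQP4 had 0 reads in every library and S100B had 0 in 4 of 5 libraries. SLC1A2 and ALDH1L1 were at or under 0.39 CPM in each library, while VIM was at 586 to 727 CPM and SLC1A3 at 6.90 to 9.85. SOX9 had 8.23 and 8.32 CPM in wild type and 4.49 to 6.83 in the edited libraries (log2 fold change -0.535, edgeR adjusted p = 0.12). The microglial and blood markers AIF1, PTPRC, CD68 and TYROBP were at or under 0.19 CPM in each library, and CSF1R had 2.22 and 1.49 CPM in wild type and 0.686 to 1.15 in the edited libraries (log2 fold change -1.0, edgeR adjusted p = 0.0883). Some markers of other cell types were called between genotypes. Of the oligodendrocyte list MBP was lower (log2 fold change -1.93, edgeR adjusted p = 0.00699), while MOG and OLIG2 had 0 reads. Of the fibroblast and pericyte list PDGFRB and ACTA2 were lower and RGS5 higher (log2 fold changes -1.25, -1.44 and 3.06, edgeR adjusted p = 0.046, 0.0401 and 0.00646). ACTA2 was near the floor, at 1.39 and 1.32 CPM in wild type and 0.312 to 0.645 in the edited libraries. COL1A2 and DCN were at or under 0.581 CPM in each library. The sum of that list, mostly COL1A1, was 1703 to 1968 CPM in 4 libraries and 549.5 in clone 6 replicate 2. The part of these markers in the results was not tested. CPM are gene counts scaled to library sizes adjusted by TMM. In bulk RNA, fewer cells in a phase of the cycle and less RNA per cell cannot be told apart.

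Compared with wild type, the edited libraries had 3 of the 34 genes higher (CDC6, GMNN and MCM10) and 3 lower (CCND2, CDK6 and POLA1), and 28 did not pass the test. Calls were made with edgeR's quasi-likelihood F test, at p below 0.05 after Benjamini-Hochberg adjustment over all genes tested. The members' share of calls, 17.6%, lay near the 18.4% of all 15500 genes tested that were called in either direction (8.27% higher and 10.2% lower). The median log2 fold change of the 34 genes was 0.015, against 0.022 for all genes tested, and 17 had a positive and 17 a negative value. Their median absolute log2 fold change was 0.16, against 0.29 over all genes tested. For 21 of the 34 genes (61.8%, against 52.7% of all genes tested) all edited libraries lay on 1 side of both wild-type libraries in CPM. Of these 12 were higher, beside 26.9% of all genes tested, and 9 lower, beside 25.8%. Nothing in the labels makes the replicates separate cultures, and these p-values measure the spread between libraries, which may be technical.

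**Figure D1:**
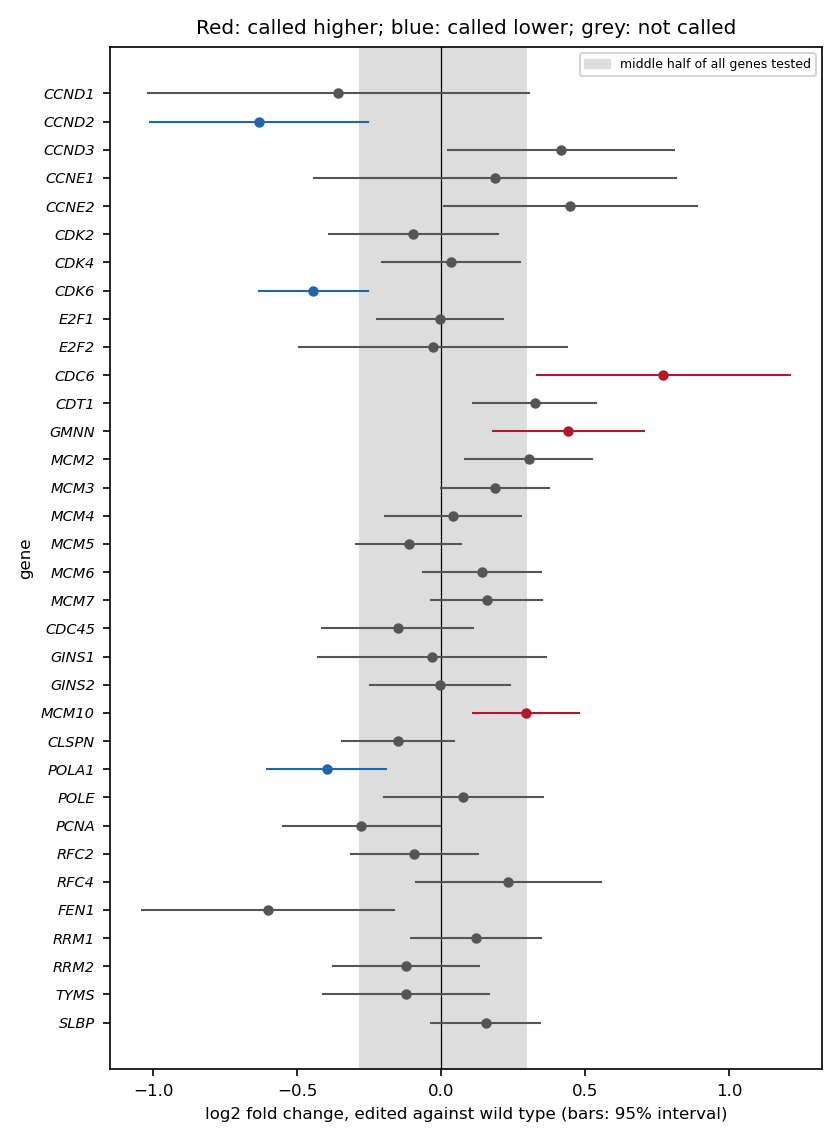
Log2 fold change of each of the 34 genes, edited against wild type (points), with 95% intervals from the edgeR standard error (bars), in the order of their roles. The grey band runs from -0.28 to 0.29, the quartiles of all genes tested. CDC6, GMNN and MCM10 (red) lie to the right and CCND2, CDK6 and POLA1 (blue) to the left, and most other genes lie within the band.

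The number of calls depended on which libraries were in the fit. Without wild-type replicate 1 or wild-type replicate 2 the count was 0 in each case, and without clone 2 it was 0. Without clone 6 replicate 1 or with clone 2 and clone 6 replicate 1 summed into 1 library, CDC6 alone was called. Without clone 6 replicate 2, 9 genes were higher and 6 lower, and the 15 (44.1%) included the original 6, where 38.8% of all genes tested in that fit were called. In the other fits without 1 library, 3.12 to 9.83% of all genes tested were called. With the ribosomal RNA share as covariate CDC6 and CDK6 stayed called, and CCND2, GMNN, MCM10 and POLA1 did not (edgeR adjusted p = 0.0526, 0.0805, 0.104 and 0.0609). In the fit without clone 6 replicate 2, the edited side is the 2 nearly identical libraries. The spread among edited libraries there comes from that pair alone.

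Of the 8 cyclin and kinase genes, 2 fell and 0 rose, beside 10.2% called lower and 8.27% called higher over all genes tested. CCND2, which encodes cyclin D2 (ENSG00000118971, chromosome 12), was at 46.2 CPM in wild-type replicate 1 and 47.8 in replicate 2. Clone 2 had 27.0 CPM, clone 6 replicate 1 also 27.0, and its replicate 2 36.9. Every edited library was below both wild-type libraries, and clone 6 replicate 2 was the nearest to them. Its mean fell from 47.0 ± 1.15 CPM (SD, n = 2) to 30.3 ± 5.67 (SD, n = 3), and the log2 fold change was -0.63 (SE 0.158, edgeR adjusted p = 0.0377). CDK6, a kinase partner of the D-type cyclins (ENSG00000105810, chromosome 7), had 142.9 and 150.4 CPM in wild type, 106.9 in clone 2, and 107.5 and 109.0 in clone 6. Here the edited libraries were nearly equal, all below wild type. The mean fell from 147 ± 5.31 (SD, n = 2) to 108 ± 1.10 CPM (SD, n = 3), which gave -0.44 as the log2 fold change (SE 0.0789, edgeR adjusted p = 0.0127). Neither was called without wild-type replicate 1 (adjusted p = 0.197 for CCND2 and 0.0991 for CDK6), wild-type replicate 2 (0.204 and 0.123), clone 2 (0.110 and 0.0671) or clone 6 replicate 1 (0.108 and 0.0574).

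The other cyclin and kinase genes did not pass the test. Cyclin D1, CCND1, had the highest level of the 3 D-type cyclins per kilobase of annotated exon, with a mean of 47.6 CPM per kb over the 5 libraries, against 5.17 for CCND2 and 8.01 for CCND3. CCND1 had 222 and 308 CPM in wild type, 234 in clone 2, and 252 and 134 in the clone 6 pair. Only clone 6 replicate 2 lay below the wild-type range, and the log2 fold change was -0.36 (95% interval -1.02 to 0.30, edgeR adjusted p = 0.41). CCND3 had 34.9 and 42.49 CPM in wild type, 54.5 in clone 2, and 57.95 and 42.52 in clone 6, where replicate 2 was level with the higher wild-type library (log2 fold change 0.42, edgeR adjusted p = 0.127). The E-type cyclins, which activate CDK2, showed the same arrangement. CCNE2 had 23.4 and 22.3 CPM in wild type, 35.8 in clone 2, and 33.6 and 24.1 in clone 6 (log2 fold change 0.45, edgeR adjusted p = 0.139), and CCNE1 had 13.9 and 14.2 CPM in wild type, 19.0 in clone 2, and 18.6 and 10.5 in clone 6 (0.19, edgeR adjusted p = 0.658). In both, clone 2 and clone 6 replicate 1 were above wild type and clone 6 replicate 2 was near or below it. Without clone 6 replicate 2, CCND3, CCNE1 and CCNE2 were called higher (edgeR adjusted p = 0.00316, 0.0129 and 0.000945). That fit has the nearly identical pair as its edited side and called 38.8% of all genes tested.

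CDK4, the other kinase of the D-type cyclins, was close to level, with 129.9 and 136.8 CPM in wild type, 130.2 in clone 2, and 129.3 and 149.9 in clone 6 (log2 fold change 0.033, 95% interval -0.21 to 0.27). CDK2 was at 89.1 and 90.99 CPM in wild type, 91.2 in clone 2, and 89.4 and 71.95 in clone 6, and only clone 6 replicate 2 was outside the narrow range of the rest. The transcription factor genes E2F1 and E2F2 did not pass the test, with log2 fold changes of -0.0032 (95% interval -0.22 to 0.21) and -0.028 (95% interval -0.49 to 0.44). E2F1 had 85.7 and 87.0 CPM in wild type, 82.4 in clone 2, and 83.5 and 92.6 in clone 6. E2F2 had 24.5 and 20.3 CPM in wild type, 26.1 in clone 2, and 22.5 and 17.3 in clone 6, so its edited libraries lay on both sides of wild type.

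**Figure D2:**
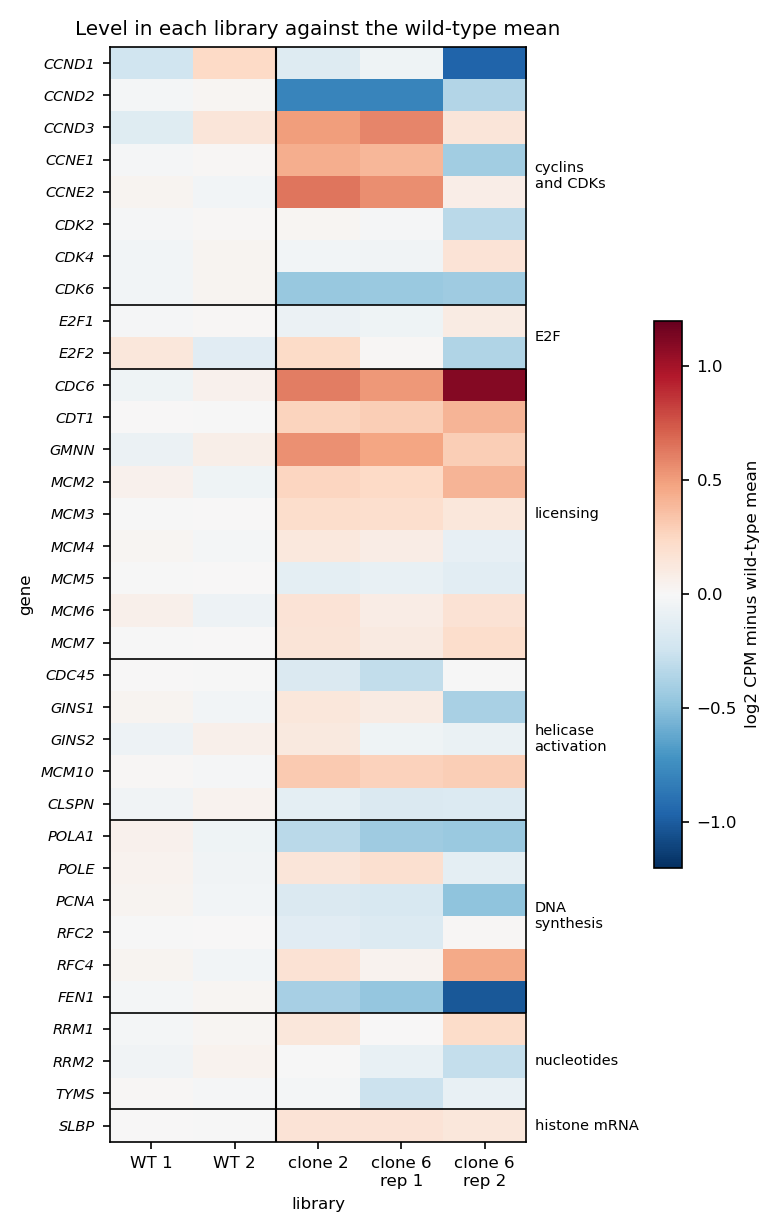
Difference of each library's log2 CPM from the mean of the wild-type libraries (colour scale from -1.2, blue, to 1.2, red) for the 34 genes (rows, by role) in the 5 libraries (columns). Clone 2 and clone 6 replicate 1 have nearly the same colours in every row, the licensing genes are mostly red in all edited libraries, and CCND1, FEN1 and CDC6 are most extreme in clone 6 replicate 2.

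Of the 9 origin licensing genes, 2 rose, 0 fell and 7 did not pass the test, beside 8.27% called higher and 10.2% lower over all genes tested. A positive log2 fold change was found for 8 (median of the 9 genes 0.19, against 0.022 for all genes tested). Edited and wild-type CPM were apart for 8 of the 9, with 7 higher and MCM5 lower, beside 52.7% of all genes tested. CDC6, the loader of the MCM helicase (ENSG00000094804, chromosome 17), had the largest rise of the 34 genes. Wild type had 146 CPM in replicate 1 and 156 in replicate 2. The level was 232 CPM in clone 2, 218 in clone 6 replicate 1 and 326 in its replicate 2. All edited libraries were above wild type, and clone 6 replicate 2 was highest. The mean rose from 151 ± 7.14 (SD, n = 2) to 258 ± 58.8 CPM (SD, n = 3), 1.71-fold (log2 fold change 0.77, SE 0.183, edgeR adjusted p = 0.0317). GMNN, which encodes the licensing inhibitor geminin (ENSG00000112312, chromosome 6), had 45.7 and 50.1 CPM in wild type, 70.0 in clone 2, and 66.5 and 58.7 in clone 6. Its edited libraries were again all above wild type, but here clone 6 replicate 2 was the nearest (47.9 ± 3.11 against 65.1 ± 5.77 CPM, SD, n = 2 and 3, log2 fold change 0.44, SE 0.110, edgeR adjusted p = 0.0372). CDC6 was not called without wild-type replicate 1 (adjusted p = 0.222), its replicate 2 (0.164) or clone 2 (0.0536), and GMNN not without these (0.264, 0.146 and 0.128) or clone 6 replicate 1 (0.113).

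CDT1, the partner of CDC6 that geminin inhibits, missed the threshold narrowly. It had 59.7 and 59.4 CPM in wild type, 71.6 in clone 2, and 72.9 and 79.2 in clone 6 (log2 fold change 0.32, SE 0.0892, edgeR adjusted p = 0.0501). No edited library overlapped wild type.

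The 6 subunits of the MCM2-7 helicase, which unwinds DNA at the fork, did not pass the test, and their log2 fold changes spanned only -0.11 to 0.30. MCM2 was at 337 and 314 CPM in wild type, 389.8 in clone 2, and 385 and 431 in clone 6 (log2 fold change 0.30, 95% interval 0.08 to 0.53, edgeR adjusted p = 0.0667). MCM3 was at 208 and 209.7 CPM in wild type, 242 in clone 2, and 240.3 and 230.1 in clone 6, a smaller step that also left no overlap (log2 fold change 0.19, edgeR adjusted p = 0.15). MCM6 and MCM7 had log2 fold changes of 0.14 and 0.16. MCM6 went from 173 and 159 CPM in wild type to 186 in clone 2 and 177 and 188 in clone 6. MCM7 went from 318 and 321 CPM to 355 in clone 2 and 344 and 370.4 in clone 6. MCM4 overlapped, with 438 and 425.5 CPM in wild type, 470.3 in clone 2, and 460.1 and 402.5 in clone 6. MCM5 was the one subunit with every edited library below wild type, at 223 and 225 CPM against 206.5 in clone 2 and 210.1 and 204.7 in clone 6 (log2 fold change -0.11, 95% interval -0.29 to 0.07). Per kilobase of annotated exon, MCM7 and MCM2 had the highest means over the 5 libraries, 77.9 and 75.7 CPM per kb, and MCM5 the lowest, 29.1, although the length used counts every annotated exon of a gene and may exceed that of the transcripts present. CDT1, MCM2 and MCM3 were called higher without clone 6 replicate 2 (edgeR adjusted p = 0.0125, 0.0132 and 0.0188). That fit, with the nearly identical pair as its edited side, called 38.8% of all genes tested.

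**Figure D3:**
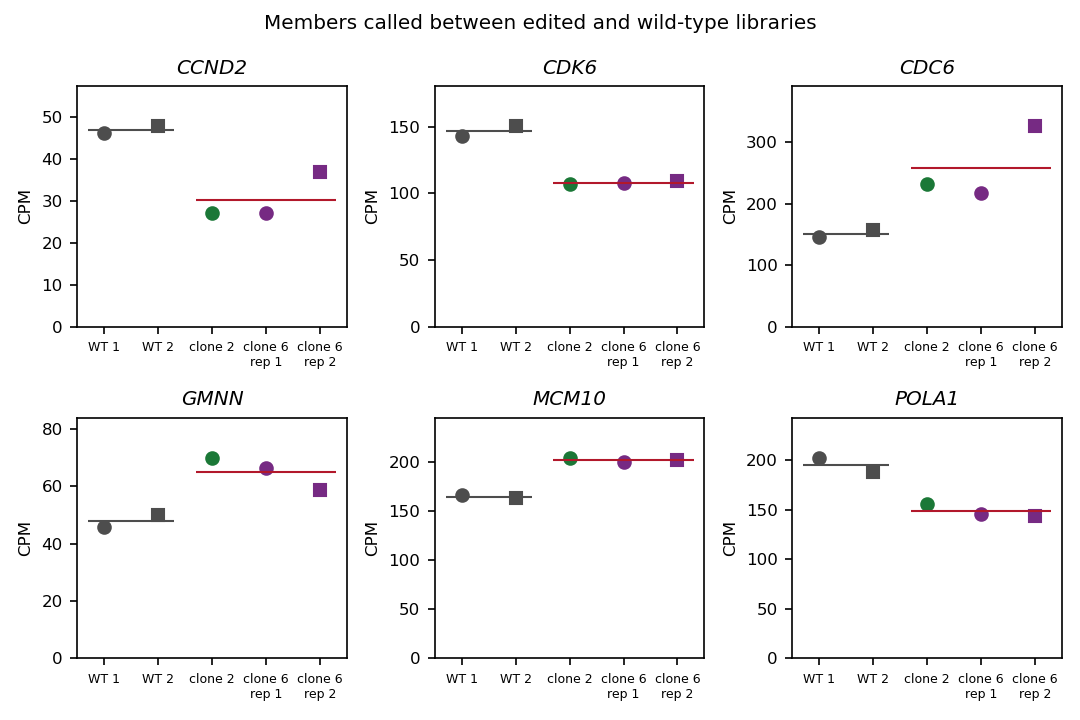
CPM in each library (points; circles are replicate 1, squares replicate 2) of the 6 genes called between edited and wild-type libraries, with group means as lines (grey wild type, red edited). The edited libraries lie on one side of both wild-type libraries in every panel, tightly for CDK6 and MCM10 and widely for CDC6, which reaches 326 CPM in clone 6 replicate 2.

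Among the 5 genes of helicase activation and the fork, 1 rose and 0 fell, beside 8.27% called higher and 10.2% lower over all genes tested. MCM10, which helps to activate the loaded helicase (ENSG00000065328, chromosome 10), had 166.0 and 163.5 CPM in wild type, 204.4 in clone 2, and 200 and 202.1 in clone 6. Its edited libraries were close together and above wild type. The mean rose from 165 ± 1.73 (SD, n = 2) to 202 ± 2.16 CPM (SD, n = 3), or by 0.30 on the log2 scale (SE 0.0769, edgeR adjusted p = 0.043). Leaving out wild-type replicate 1 (adjusted p = 0.232), its replicate 2 (0.237), clone 2 (0.160) or clone 6 replicate 1 (0.121) ended the call, as did edgeR's fit with DESeq2's size factors (0.051) or without a filter (0.142). The helicase cofactors CDC45, GINS1 and GINS2 and the checkpoint adaptor CLSPN did not pass the test, with log2 fold changes of -0.15, -0.032, -0.0035 and -0.15. CDC45 had 63.4 and 63.2 CPM in wild type, 56.2 in clone 2, and 51.4 and 63.16 in clone 6. Clone 6 replicate 2 thus sat at the level of wild type, and without it CDC45 was called lower (edgeR adjusted p = 0.0306). The fit without it rests on the nearly identical pair and called 38.8% of all genes tested.

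Of the 6 DNA synthesis genes, 1 fell and 0 rose, beside 10.2% called lower and 8.27% called higher over all genes tested. Their median log2 fold change was -0.19. POLA1, the catalytic subunit of the polymerase that starts new strands (ENSG00000101868, chromosome X), had 202 and 188 CPM in wild type, 156 in clone 2, and 145 and 143 in clone 6. The edited libraries were close together and all below wild type. The mean fell from 195 ± 10.1 (SD, n = 2) to 148 ± 6.78 CPM (SD, n = 3), and the log2 fold change was -0.40 (SE 0.0864, edgeR adjusted p = 0.0241). The adjusted p of POLA1 was 0.206 without wild-type replicate 1, 0.111 without replicate 2, 0.0706 without clone 2 and 0.0931 without clone 6 replicate 1, each above the threshold.

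FEN1, the nuclease that trims Okazaki fragments, had a larger difference with a wider spread. It had 260 and 267 CPM in wild type, 200.4 in clone 2, and 191 and 129.7 in clone 6, all below wild type with clone 6 replicate 2 the lowest (263 ± 4.87 against 174 ± 38.3 CPM, SD, n = 2 and 3, log2 fold change -0.60, SE 0.183, edgeR adjusted p = 0.0666). PCNA, the sliding clamp and per kilobase the most abundant of the 34 genes (199 CPM per kb), had 334 and 320 CPM in wild type, 289.7 in clone 2, and 286 and 235 in clone 6 (log2 fold change -0.28, 95% interval -0.55 to -0.0030, edgeR adjusted p = 0.143). FEN1 and PCNA were called lower once clone 6 replicate 2, the lowest library for both, was left out (edgeR adjusted p = 0.00035 and 0.0225). The nearly identical pair is then the edited side, and 38.8% of all genes tested were called. RFC4, a clamp loader subunit, was higher in every edited library, with 66.4 and 63.3 CPM in wild type, 73.2 in clone 2, and 66.8 and 88.7 in clone 6, but by very little in clone 6 replicate 1 (log2 fold change 0.23, edgeR adjusted p = 0.273). RFC2 and the leading-strand polymerase gene POLE overlapped wild type, with log2 fold changes of -0.093 and 0.077.

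None of the 3 nucleotide supply genes passed edgeR's test (0 of 3, and 0 of 3 at an unadjusted p below 0.05). RRM1, the large subunit of ribonucleotide reductase, had 329.6 and 341 CPM in wild type, 368 in clone 2, and 336 and 390.4 in clone 6 (log2 fold change 0.12). Its small subunit RRM2 had 331 and 350.3 CPM in wild type, 338 in clone 2, and 321 and 279 in clone 6 (-0.12), and both overlapped wild type. Thymidylate synthase, TYMS, had 24.5 and 24.0 CPM in wild type, 23.9 in clone 2, and 20.2 and 22.7 in clone 6 (-0.12). SLBP, which binds the stem-loop of histone mRNAs, had 88.5 and 87.6 CPM in wild type, 98.7 in clone 2, and 98.9 and 96.6 in clone 6, with no overlap but a log2 fold change of only 0.16 (95% interval -0.03 to 0.34, edgeR adjusted p = 0.22).

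Taken singly, neither clone had a member past the threshold. In the fit with 3 groups, 0 of 34 genes were called in clone 2 against wild type (5 at an unadjusted p below 0.05) and 0 in clone 6 against wild type (9 at that level) by edgeR's quasi-likelihood test, where 4.03 and 9.49% of all genes tested were called. By direction the shares over all genes were 1.71% higher and 2.32% lower in clone 2, and 4.05% higher and 5.44% lower in clone 6. DESeq2 was not run on the clones. The lowest adjusted p in clone 6 was that of CDC6 (log2 fold change 0.84, edgeR adjusted p = 0.053), and CCND2 had the lowest in clone 2 (-0.80, edgeR adjusted p = 0.123). Both comparisons share the wild-type libraries. A test between the clones cannot show them to be alike, because clone 2 has 1 library. That library was nearer to clone 6 replicate 1 than clone 6 replicate 2 was. The difference between the clones was tested itself and had 0 of 34 members called, 0 at an unadjusted p below 0.05, and 0% of all genes tested.

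The clone 6 replicates differed more (median absolute difference 0.28 log2 CPM over all genes tested, 0.198 over the 34) than clone 2 and clone 6 replicate 1 did (0.097 and 0.0434). Clone 2 and clone 6 replicate 2 differed about as much as the clone 6 replicates (0.271 and 0.197). Clone 6 replicate 2 lay outside the range of the other 4 libraries for 23 of the 34 genes, above it for 10 and below it for 13. That is 67.6% of them, against 57.2% of all genes tested, and each other library was outside for 26.5 to 41.2% of the 34 genes and 28 to 45.4% of all genes tested. Leaving out clone 6 replicate 1 leaves 1 library for each clone and a spread taken from the wild-type pair alone. Any difference between the clones is then that of clone 6 replicate 2. CDC6 in that library had a log2 CPM of 0.54 relative to the mean of the other edited libraries. CCND1, CCNE1, GINS1 and FEN1 had -0.85, -0.84, -0.51 and -0.59. In these genes clone 6 replicate 1 was near clone 2 (217.5 and 231.6 CPM for CDC6, 190.9 and 200.4 for FEN1). Of 8 proliferation and mitosis markers (MKI67, TOP2A, CCNB1, CDK1, PLK1, AURKA, BUB1 and CENPF), all 8 were below the wild-type mean in clone 6 replicate 2. CCNB1 was nearly level with that mean (-0.004 log2 CPM). Of all 15500 genes tested, 7689 were above it in that library. MKI67, BUB1 and CENPF were below wild type in every edited library, as were 25.8% of all genes tested. CCNB1, CDK1, PLK1 and AURKA went the other way in clone 2 and clone 6 replicate 1, where they were above both wild-type libraries. TOP2A lay within the wild-type range in that pair. The median of the 8 markers was -0.36 log2 CPM in clone 6 replicate 2, against 0.084 in clone 2 and 0.022 in clone 6 replicate 1. Their summed level was 2456 CPM in clone 6 replicate 2 and 3001 to 3138 CPM in the other libraries, and 0 of 8 were called between genotypes. MKI67, the antigen of cycling cells, had 375 and 325 CPM in wild type, 308.5 in clone 2, and 317 and 154 in clone 6. The part that these markers play in the values of the 34 genes was not tested.

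The rest of the pathway was read from a list of 82 further genes of licensing, replication, nucleotide supply and G1/S control. Of these, 11 rose and 8 fell in the edited libraries, or 23.2% against 18.4% of all genes tested, with a median log2 fold change of 0.11. Without wild-type replicate 1 the counts were 1 and 0, without wild-type replicate 2 they were 1 and 1, without clone 2 they were 5 and 2, and without clone 6 replicate 1 they were 5 and 1. Leaving out clone 6 replicate 2 gave 20 and 17, and summing clone 2 with clone 6 replicate 1 gave 5 and 2. The shares of all genes tested that were called in these fits were, in the same order, 3.12, 4.34, 9.69, 9.83, 38.8 and 9.71%.

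CDKN1B, the CDK inhibitor p27, changed most. It had 63.7 and 58.7 CPM in wild type, 152 in clone 2, and 147 and 133 in clone 6. All 3 edited libraries lay far above both wild-type libraries. The mean rose from 61.2 ± 3.50 (SD, n = 2) to 143.9 ± 9.96 CPM (SD, n = 3), 2.35-fold (log2 fold change 1.23, SE 0.101, edgeR adjusted p = 0.00105). It stayed called in all 13 alternative fits, and it was also called in each clone alone (edgeR adjusted p = 0.0128 in clone 2 and 0.00642 in clone 6). The related inhibitor CDKN1A, or p21, rose by less, with 127 and 105 CPM in wild type, 183 in clone 2, and 194 and 170.5 in clone 6 (log2 fold change 0.65, edgeR adjusted p = 0.012). RB1, the retinoblastoma gene, fell, with 150.7 and 135 CPM in wild type, 104 in clone 2, and 109 and 113 in clone 6 (log2 fold change -0.40, edgeR adjusted p = 0.0283). TFDP1, the dimer partner of the E2F factors, also fell (log2 fold change -0.44, edgeR adjusted p = 0.0408), as did the deaminase gene DCTD (-0.44, edgeR adjusted p = 0.042). Of these 5 genes CDKN1B alone was called whichever wild-type library was left out. There the adjusted p of the others ran from 0.0537 for CDKN1A to 0.264 for TFDP1, and RB1, TFDP1 and DCTD also lost their calls without clone 2 or without clone 6 replicate 1 (0.0856 to 0.134).

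Subunits of single complexes were not uniform. These complexes were grouped after the values had been seen, and all 9 are shown. CDC7, the kinase that fires licensed origins, had 43.6 and 44.4 CPM in wild type, 74.3 in clone 2, and 71.4 and 83.1 in clone 6 (log2 fold change 0.79, SE 0.101, edgeR adjusted p = 0.00426). Its activator DBF4 fell, from 89.2 and 101 CPM in wild type to 69.0 in clone 2 and 69.1 and 75.1 in clone 6 (log2 fold change -0.42, SE 0.0963, edgeR adjusted p = 0.0286). CDC7 was thus higher and DBF4 lower in every edited library.

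In the polymerase alpha-primase complex the polymerase subunits POLA1 and POLA2 both fell (log2 fold changes -0.40 and -0.51). The primase subunit PRIM2 rose by 0.43 (edgeR adjusted p = 0.0246), and the other, PRIM1, had a log2 fold change of 0.47 without a call (edgeR adjusted p = 0.185). POLA2 had 67.1 and 67.6 CPM in wild type, 49.2 in clone 2, and 45.1 and 47.8 in clone 6. PRIM2 had 37.7 and 42.2 CPM in wild type, 53.8 in clone 2, and 53.7 and 54.2 in clone 6. Neither POLA2 nor PRIM2 overlapped between genotypes.

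POLD3, an accessory subunit of polymerase delta, was the gene with the largest fall in the list, from 64.3 and 60.4 CPM in wild type to 38.5 in clone 2 and 34.8 and 36.4 in clone 6 (log2 fold change -0.77, SE 0.0944, edgeR adjusted p = 0.00386). The other polymerase delta subunits, POLD1, POLD2 and POLD4, did not pass the test. Of the single-strand binding complex RPA, RPA2 and RPA3 rose by 0.64 and 0.56 on the log2 scale (edgeR adjusted p = 0.0122 and 0.0264), and RPA1 had a log2 fold change of 0.13. ORC3 rose by 0.51 on the log2 scale (edgeR adjusted p = 0.0086) and the other 5 origin recognition subunits did not pass the test. In GINS, polymerase epsilon and the RFC clamp loader 0 subunits were called by edgeR's test. CDC7, ORC3, RPA2 and POLA2 lost their calls without wild-type replicate 1 (adjusted p = 0.0674, 0.0966, 0.133 and 0.111) or 2 (0.0572, 0.0952, 0.0627 and 0.101), POLD3 without replicate 1 (0.0629), and POLA2 also without clone 6 replicate 1 (0.0538). DBF4 lost its call without wild-type replicate 1 or 2, clone 2 or clone 6 replicate 1 (0.108, 0.219, 0.110 and 0.1). PRIM2 and RPA3 lost theirs without the same 4 libraries (0.083 to 0.212 and 0.0541 to 0.201). With the ribosomal RNA share as covariate DBF4, PRIM2 and RPA3 were not called (0.0546, 0.0622 and 0.0598), nor were RB1, TFDP1 and DCTD (0.0702, 0.0809 and 0.0543).

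**Figure D4:**
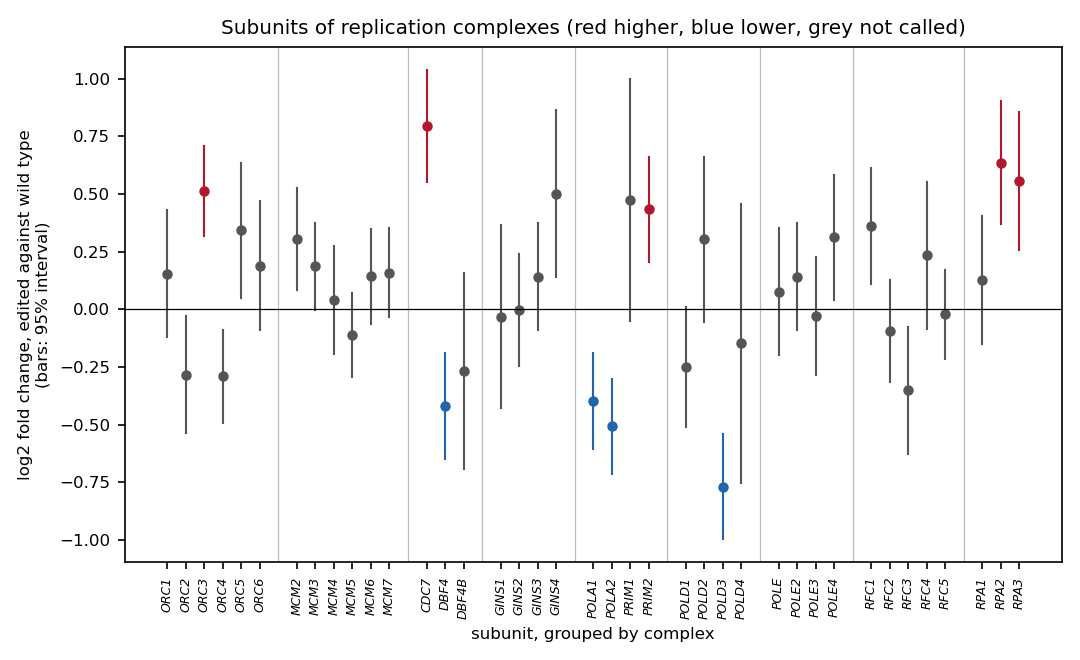
Log2 fold change, edited against wild type, of each subunit (points) with its 95% interval (bars), grouped by complex between the vertical lines. CDC7 (0.79) and DBF4 (-0.42) lie on opposite sides of 0, as do PRIM2 (0.43) and the polymerase subunits POLA1 (-0.40) and POLA2 (-0.51), while the 6 MCM subunits stay between -0.11 and 0.30.

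Because E2F factors act at the promoters of many of these genes, the promoter sequences were searched for their binding letters. RefSeq promoters (GRCh38.p14, 250 bases before to 50 after each start) were given for 28 of the 34 genes. CCND1, CCND2, CCNE2, CDK2, MCM4 and MCM5 were without an entry. The E2F-type letters TTTGGCGC, TTTCCCGC, TTTGGCGG or TTTCGCGC, on either strand, occurred in 18 of the 28 (64.3%), against 4.05% of all 27305 genes with a promoter entry and 6.78% of the 9937 that were also tested for expression. The CCAAT box, CCAAT on either strand, was in 17 of 28 (60.7%, against 39.7% of all genes), and the letters TTTGAA of the CHR element in 1 of 28, RRM1 (3.57%, against 18.2%). None of these words contains another, and a match is a description of the sequence only. The matches of the called genes are shown here with 11 bases on each side and the E2F-type letters in capitals, because 1 word occurs in genes that moved in opposite directions.
CDC6 (chr17:40287840-40287869, plus strand, 28 bases before the start): cgaggccgggcTTTGGCGGgaggtgggaac
CDC6 (chr17:40287875-40287904, plus strand, 8 bases after the start): ggccattcggaTTTGGCGCgagcgcggctg
GMNN (chr6:24775322-24775351, plus strand, 80 bases before the second of 2 listed starts): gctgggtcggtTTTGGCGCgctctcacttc
MCM10 (chr10:13161552-13161581, plus strand, 6 bases after the start): ccggttggaatTTTGGCGGgttcagctgtg
POLA1 (chrX:24693770-24693799, plus strand, 137 bases before the start, letters on the opposite strand): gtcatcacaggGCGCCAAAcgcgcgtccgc

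CDC6, GMNN and MCM10, which rose, and POLA1, which fell, each held an E2F-type word. GMNN and POLA1 carry the same word, TTTGGCGC, which in POLA1 reads GCGCCAAA on the gene's strand. CDK6, which fell, held none in the windows of its listed starts, and neither did CDK4, CCND3 or FEN1. The helicase genes MCM2, MCM3, MCM6 and MCM7, with small positive differences, held 1 or more each, as did E2F1 and PCNA, so holding the letters did not go with 1 direction of difference.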

How the data were processed

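The authors deposited whole-number counts of reads per gene, 1 file per library, with no normalization. Per the submitters' processing notes, Trimmomatic, STAR and HTSeq and the build hg19 (GRCh37) were used. Neither versions nor annotation release nor strand setting is given in the sources used here, so reads of overlapping antisense genes cannot be told apart. Of 63677 genes listed, 5772 had no value and were left out, and 0 entries named no gene.

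The fits used edgeR 4.0.16 in R 4.3.3 (TMM, filterByExpr by genotype, quasi-likelihood F test, Benjamini-Hochberg adjustment over 15500 genes). Residual degrees of freedom were 3 by genotype and 2 by clone. Log2 CPM used a prior count of 2. Standard errors were derived from the log2 fold change and the F statistic, and 95% intervals from them cover the spread between libraries. Exon lengths and chromosomes came from GENCODE 29 (GRCh38), joined by identifier, and no coordinates were taken from it. The fit was run on simulated counts with known changes, drawn as independent libraries with a shared mean within each genotype. The nearly identical pair and the distance of clone 6 replicate 2 were not simulated. The members, lists and tests were chosen with earlier results of these data known. Members were named when called in any comparison, at the extremes of their role, or as CCND1, CCNE1, CDK4, MCM2 to MCM7 and PCNA. Of the 82 further genes, up to 6 called each way with the smallest p were named. Of these 1, and 1 marker gene, are not reported here. PRIM2, RPA3 and uncalled subunits were named after their values were seen.

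Alternatives were other scalings, filters and DESeq2 1.42.0, a replicate block, the ribosomal RNA share as covariate, leaving out each library, and summing clone 2 with clone 6 replicate 1. For the 82 genes they were added after the data were seen.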

Additional observations from a re-analysis of the deposited data

How the results depend on the processing

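Members called higher and lower between genotypes (3 and 3) ranged from 0 to 9 and from 0 to 6 when 1 library was left out, all genes called higher and lower (1282 and 1575) from 170 to 2786 and from 330 to 3133, and the other pathway genes (11 and 8) from 1 to 20 and from 0 to 17. With clone 2 and clone 6 replicate 1 summed the counts were 1 and 0, 612 and 908, and 5 and 2. With the ribosomal RNA share as covariate they were 1 and 1, 828 higher over all genes, and 6 and 2. Without a filter, 5 members and 2377 genes were lower. With DESeq2, 3 members were higher and 4 lower, or 20.6% of members against 20.9% of all genes tested. The covariate fit called 5.88% of members and 12.7% of all genes tested. Without a filter the shares were 20.6% of members and 13.2% of all genes tested. For the clones, members called higher and lower ranged from 0 to 5 and from 0 to 4 in clone 2, from 0 to 5 and from 0 to 7 in clone 6, and from 0 to 1 and from 0 to 3 between clones when 1 library was left out. With only the libraries of clone 2 and wild type the counts were 4 and 3. For these alternative fits by clone the share of all genes called was not counted. A promoter window of 150 bases took the CHR count from 1 to 0. The cause of these differences was not tested.

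Replicate 1 minus replicate 2 correlated between wild type and clone 6 across genes (r = 0.196), but the labels do not say what a shared number marks. With the replicate block, 5 members were higher and 5 lower, or 29.4% of members against 28.6% of all genes tested. In that fit 2160 genes were higher, and 20 and 13 other pathway genes were called. Clone 6 had 1 member higher and 1 lower with the block, and the share over all genes was not counted there.

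The log2 fold changes whose sign changed were not called in the fits by genotype and by clone. E2F1 was 0.0111 with the replicate block, 0.0116 with the summed library, and -0.071 to 0.0308 without 1 library. The summed library gave -0.0033 for MCM4. With 1 library left out, CDK4 ran from -0.052 to 0.072, E2F2 from -0.17 to 0.116, GINS1 from -0.12 to 0.107 and GINS2 from -0.066 to 0.061. Between the clones, CDK6 was -0.0053 with the replicate block, and with 1 library left out CCND2 ran from -0.0062 to 0.44 and CDC6 from -0.096 to 0.49. Depth limits the least covered genes most, and with 2 wild-type libraries many small differences may not be detected.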

Other observations

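Among the 34 genes and the 82 further pathway genes, wide gaps between clone 6 replicate 2 and the other edited libraries included genes that were not called between genotypes. The genes given here were chosen after they were seen. The widest gap was that of MYC, a transcription factor gene that drives growth, with 41.5 and 77.3 CPM in wild type, 63.9 in clone 2, and 57.3 and 195 in the clone 6 pair. ASF1B, a histone chaperone of replicating chromatin, had 75.7 and 68.2 CPM in wild type, 103.7 in clone 2, and 102 and 46.4 in the clone 6 replicates. The CDK inhibitor gene CDKN2C had 82.6 and 65.97 CPM in wild type, 142 in clone 2, and 151 and 66.5 in the clone 6 pair. SKP2, part of the ubiquitin ligase that recognises p27, had 159 and 179.7 CPM in wild type, 120.1 and 119 in clone 2 and clone 6 replicate 1, and 61.2 in clone 6 replicate 2. E2F7, an E2F factor that represses transcription, was highest there, as MYC was, with 68.7 to 84.0 CPM in the other 4 libraries and 181 CPM in clone 6 replicate 2. In ASF1B and CDKN2C the other edited libraries were above wild type while clone 6 replicate 2 was below or level with it.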
